A study of Mus musculus with 18 samples.

Results

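The intact substantia nigra was described from 6 of the 18 libraries of a study of mouse midbrain, chosen by their label alone. In the other 12 an adeno-associated virus (AAV) had delivered GFP, in 6, or SIRT3, in 6, and these are used here only where stated. The intact group is labelled wild type (WT), with no virus, strain or sex named, and came from 6 mice 3 months old. Poly-A RNA was purified per the labels' protocols, and stranded libraries were read in pairs of 100 bases. The labels do not describe where the tissue was cut from its neighbours. With 1 group and no contrast inside it, the questions were which genes were abundant, which cell types and transmitters were seen, and which genes differed between libraries.

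The substantia nigra is a ventral midbrain nucleus with a compact and a reticular division. The pars compacta holds dopaminergic neurons, which make dopamine with tyrosine hydroxylase and project to the striatum, and are the neurons lost in Parkinson's disease. The pars reticulata holds fast-firing GABAergic neurons that project to the thalamus and brainstem. Myelinated tracts with many oligodendrocytes run along and through the nucleus, beside the hypothalamus and subthalamic nucleus in front and the raphe and other brainstem nuclei behind.

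Between 47182529 and 60921281 reads per library were assigned to genes. Of 55270 genes listed, 34704 had a read in at least 1 intact library and 22199 in all 6. The share of reads from mitochondrially encoded genes was 7.68% ± 0.272 (SD, n = 6). Replicate 1 stood apart on the first principal component of all 13925 genes tested for variation below, which held 44.3% of their variance. Replicate 2 stood apart on the second, which held 21.2%. Counts that rest on either library are given with and without it.

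Values are given on 2 scales. Normalised reads are the deposited values and compare libraries for 1 gene. Levels are reads divided by merged exon length and by the assigned reads of the library (RPKM), and compare genes with each other. By level, 12946 genes reached 1 RPKM and 299 reached 100.

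The most abundant RNAs per length came from mitochondria, myelin and astrocytes. The 9 highest levels were mitochondrially encoded. mt-Co1, a subunit of cytochrome c oxidase, had 16199 ± 567 RPKM (SD, n = 6), mt-Nd1 and mt-Nd2, subunits of complex I, had 10595 ± 551 and 6855 ± 348, and mt-Cytb of complex III had 10440 ± 406. These were followed by mt-Nd6, mt-Nd4, mt-Nd5 and the ribosomal RNAs mt-Rnr1 and mt-Rnr2, from 4120 RPKM for mt-Nd6 down to 3029 for mt-Rnr2.

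The leading nuclear gene was Sparcl1, a matrix protein made mainly by astrocytes, with 957 ± 86.9 RPKM. Mbp, which encodes myelin basic protein, had 824 ± 86.6. Bc1, a small noncoding RNA of neuronal dendrites, had 879.6 ± 222.5, and its range of 1.88 between the highest and the lowest library was the widest of these 20 genes. The top 20 also held Cpe, which processes neuropeptides, Ptgds, a prostaglandin synthase, Eef1a1 of translation, Fth1, an iron-storage protein, Apoe, a lipid carrier, the transfer RNA mt-Tp, and Tubb4a, a tubulin of myelinating cells and neurons. Their levels ran from 791 RPKM for Cpe to 601 for Tubb4a. None of the 20 had a range of 2 or more.

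The reads were spread over many genes. The 10 genes with most reads took 8.70% ± 0.269 of all reads, the first 100 took 20.7% ± 0.316 and the first 1000 took 49.2% ± 0.412. Nuclear protein-coding genes held 88.9% ± 0.253 of the reads and nuclear long noncoding RNAs 1.29% ± 0.0827.

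Mitochondrial genes did not share 1 level, although they are transcribed together from both strands of 1 circle. mt-Co2 was listed at 104 ± 18.5 RPKM, mt-Co3 at 73.5 ± 59.9, mt-Atp6 at 73.2 ± 41.3 and mt-Nd3 at 44.1 ± 5.29, against 16199 for mt-Co1. A run of pseudogenes on the minus strand of chromosome 1, between positions 24612775 and 24616197 of GRCm38, holds near-identical copies of these genes. Gm28661 matched mt-Co2 at 681 of 681 aligned bases, Gm28437 matched mt-Co3 at 783 of 783, Gm10925 matched mt-Atp6 at 678 of 678, and Gm28438 matched mt-Nd3 at 342 of 342.

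The fifth copy, Gm29216, covers only the end of mt-Co1, and differed from it at 1 of 483 bases. Positions 1063 to 1122 of mt-Co1 are shown, counted from the start of the gene, because they hold that base, given as a capital.
mt-Co1: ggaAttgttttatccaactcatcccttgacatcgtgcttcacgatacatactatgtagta
Gm29216: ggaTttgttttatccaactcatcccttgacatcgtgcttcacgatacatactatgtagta
All 4 mitochondrial genes with near-complete copies were listed at low levels, while mt-Co1, with a copy of its end only, was not. Whether the copies bear on these levels was not tested. The copies themselves were listed at 46.3 ± 4.70 RPKM for Gm28661, 51.1 ± 4.87 for Gm10925, 43.3 ± 22.7 for Gm28437 and 25.3 ± 9.65 for Gm28438. How reads that match both places were counted is not given in the sources used here, so the levels of mt-Co2, mt-Co3, mt-Atp6 and mt-Nd3 are uncertain. mt-Nd4l and mt-Atp8, which overlap neighbouring mitochondrial genes, were both listed at 37.4 RPKM, and no copy of either was examined. Their levels are uncertain as well.

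The labelled tissue was checked against its markers, and all were present in every library. Th, the rate-limiting enzyme of dopamine synthesis, had 4623 normalised reads in the lowest library, a median of 5679 and 6637 in the highest. Slc6a3, the dopamine transporter of the pars compacta, ran from 9283 through a median of 11103 to 12867. Gad1, which makes GABA, ran from 23797 through 25845 to 28261. Each of the 3 genes was within a factor of 1.44 across libraries.

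The glial markers ran over factors of 1.31 to 1.53. Mbp ran from 347320 through a median of 363899 to 467731 normalised reads, with replicate 1 the highest. Gfap, an intermediate filament of astrocytes, ran from 14204 through 17053 to 21766, also highest in replicate 1. P2ry12, a purinergic receptor of resident microglia, ran from 1593 through 1810 to 2081. The order per length was Mbp at 824 RPKM, Gfap at 76.8 ± 11.3, Gad1 at 62.6 ± 4.79, Slc6a3 at 58.7 ± 7.81, Th at 44.4 ± 6.06 and P2ry12 at 13.02 ± 1.22, and of the neighbours in that order only Mbp and Gfap, and Th and P2ry12, had ranges that did not overlap. This order depends on the length used. With the longest transcript in place of merged exons, Mbp had 1454 RPKM, and Gad1, at 132.8, lay above Gfap, at 122.3. Slc6a3 had 58.66, Th 53.85 and P2ry12 14.14. RNA level is not cell number: in bulk tissue, fewer cells of a type and less RNA per cell cannot be told apart.

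**Figure D1:**
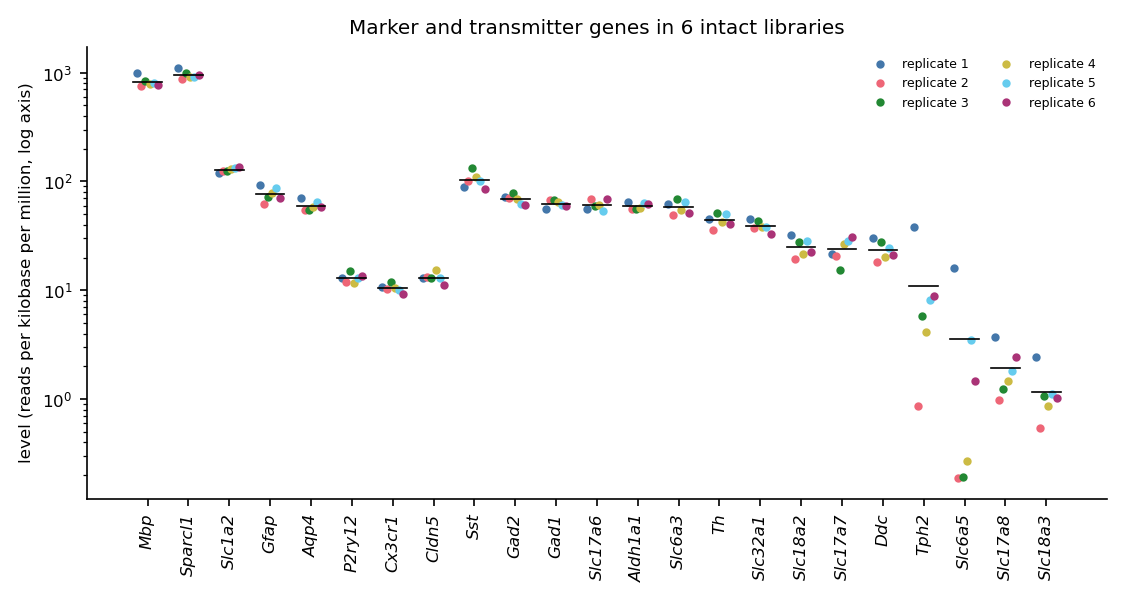
Level per length (RPKM, log axis) of marker and transmitter genes in the 6 intact libraries. Points are libraries coloured by replicate, offset sideways so they can be seen, and bars are means. Glial and dopaminergic genes lie close together across libraries, while Tph2 and Slc6a5 spread from 0.868 to 38.0 and from 0.187 to 15.9 RPKM.

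Genes of GABA, glutamate and dopamine signalling had levels of the same order. Sst, the inhibitory peptide somatostatin, was the only peptide gene of the 16 genes placed in order, and the highest, at 103 ± 17.3 RPKM. Gad2, the other GABA-making enzyme, followed at 68.9 ± 6.51, then Gad1 at 62.6, Slc17a6, the vesicular glutamate transporter of subcortical neurons, at 61.2 ± 6.38, Aldh1a1, an aldehyde dehydrogenase of ventral dopaminergic neurons, at 59.9 ± 3.87, and Slc6a3 at 58.7. From Gad2 down to Slc32a1, each gene's range over libraries overlapped that of the next. Some genes of the neuropeptide list, which were not placed in order, had higher levels than Sst. Scg2 had 273.5 to 331.4 RPKM and Pcsk1n 125.7 to 175.4. The order is for merged exon lengths. With the longest transcript in their place Gad1 had 132.8 RPKM and Slc6a3 58.66, and the order of the 16 genes was not computed again.

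Below Th came Slc32a1, which loads GABA into vesicles, at 39.2 ± 4.36 RPKM, then Slc18a2, which loads dopamine and other monoamines, at 25.2 ± 4.92, Slc17a7, the vesicular glutamate transporter of cortical neurons, at 23.9 ± 5.70, and Ddc, the last enzyme of dopamine synthesis, at 23.6 ± 4.63. Of the 15 steps between neighbours in the order, the ranges were separate only between Sst and Gad2 and between Slc32a1 and Slc18a2. Genes of other transmitters closed the order. Tph2, the serotonin-making enzyme of neurons, averaged 11.0 ± 13.5, Slc6a5, the glycine transporter of glycinergic neurons, 3.60 ± 6.19, Slc17a8, the least widespread vesicular glutamate transporter, 1.94 ± 1.00, and Slc18a3, the acetylcholine transporter of vesicles, 1.17 ± 0.646. Replicate 1 was the highest library for all 4.

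Noradrenergic genes were near 0 outside replicate 1. Dbh, which makes noradrenaline, had 102 normalised reads in replicate 1 and at most 1.14 in any other library, with 0 in replicates 3, 4 and 6. Slc6a2, the noradrenaline transporter, had 141 in replicate 1 and at most 4.53 elsewhere. None of the 4 noradrenergic genes reached a mean of 100 normalised reads. Neither did any of the 6 red blood cell genes, whose summed value ran from 37.6 to 184.

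Receptor genes of several transmitters were measured. Drd2, the dopamine autoreceptor of dopaminergic neurons, had 11.1 ± 1.44 RPKM, and Chrna6, a nicotinic subunit typical of those neurons, had 11.6 ± 1.62. Drd1, the dopamine receptor carried by striatal axons whose cell bodies lie outside the nigra, was lower, at 0.920 ± 0.226, and its range did not overlap that of Drd2. Htr2c, a serotonin receptor, had 14.7 ± 2.41 RPKM.

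Variation between libraries was then measured for each of the 13925 genes with a mean of at least 100 normalised reads, as the highest library over the lowest, with a library under 3 reads counted as 3. The median gene differed by a factor of 1.196. A ratio of 2 or more was found for 475 genes, or 3.41%, of which 125 reached 3, 48 reached 5 and 23 reached 10. Just inside the threshold lay 97 genes with ratios of 2.0 to 2.1, and just outside lay 104 with 1.9 to 2.0. The median biological coefficient of variation, the spread left after counting noise, was 5.88% for all these genes and 30.3% for the 475.

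Genes of glia and endothelium had ratios close to those of all genes. None of the 14 astrocyte, 16 microglial, 8 oligodendrocyte precursor or 11 endothelial genes had a ratio of 2, which is near the background of 3.41%. Their median ratios were 1.21, 1.24, 1.24 and 1.31, against 1.196 for all genes. Of 7 genes of mural cells, the contractile cells of vessels, 2 had a ratio of 2, and 0 did without replicate 5. Aldh1l1, a folate enzyme of astrocytes, ran only from 3314 through a median of 3412 to 3488 normalised reads. Of 17 oligodendrocyte genes only Enpp2 passed, with 52523 in replicate 2 and 23463 to 32978 elsewhere, and choroid plexus epithelium also makes it. Without replicate 2 its ratio was 1.41.

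Of the 15 circadian clock genes 0 passed a ratio of 2, near the background of 3.41%, and their median ratio was 1.24, against 1.196 for all genes. Cry2, a repressor of the clock, ran from 4944 through a median of 5045 to 5306 normalised reads. Per2, another repressor, ran from 1111 through 1216 to 1299. Of 11 immediate early genes, which neurons switch on with activity, 4 passed a ratio of 2, 1 did without replicate 1, and 9 of the 11 were lowest in replicate 1, where 23.8% of all genes tested were lowest. Fos had 812 normalised reads in replicate 1 and 1146 to 1703 elsewhere, and without replicate 1 its ratio was 1.49.

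Replicate 1 was more often the lowest library of the variable genes than any other. It was lowest for 236 of the 475, where 23.8% of all genes tested were lowest, and highest for 91, where 27.0% were highest. Replicate 2 was the highest for 123, against 14.3%. Without replicate 1, 248 genes had a ratio of 2 or more, or 1.78%, and 239 of these were among the 475. Without replicate 2 the count was 367, or 2.64%. Leaving out replicate 3, 4, 5 or 6 gave shares of 2.82%, 3.11%, 2.95% and 3.11%.

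The genes low in replicate 1 were led by hypothalamic peptides. Oxt, the precursor of oxytocin, had 5.49 normalised reads in replicate 1, from 6 reads, and 822, 1907, 1015, 338 and 375 in replicates 2 to 6. Avp, the precursor of vasopressin, had 8.23 in replicate 1 and 1262, 1844, 2080, 509 and 569 in the others. Replicate 1 lay far below the rest for both genes, and replicates 2 to 4 lay above 5 and 6. The ratios were 347 for Oxt and 253 for Avp with all libraries, and 5.65 and 4.09 without replicate 1.

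Oxt and Avp are neighbours on chromosome 2, transcribed toward each other, and magnocellular neurons of the hypothalamus make their peptides. The 250 bases before each start (RefSeq, GRCm38.p6) are shown because both genes moved together over the 6 libraries. The first lies on the plus strand at chr2:130575919-130576168, and the second on the minus strand at chr2:130582589-130582838. Capitals in the Oxt sequence mark TGACC, the core of nuclear receptor sites, searched on both strands. Capitals in the Avp sequence mark CACGTG, the E-box letters read by clock and related factors, which are the same on both strands.
Oxt: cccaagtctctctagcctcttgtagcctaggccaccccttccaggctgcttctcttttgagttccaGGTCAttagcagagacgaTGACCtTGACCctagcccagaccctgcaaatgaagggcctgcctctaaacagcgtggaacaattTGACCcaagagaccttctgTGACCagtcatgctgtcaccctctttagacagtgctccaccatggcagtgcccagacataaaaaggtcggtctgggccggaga
Avp: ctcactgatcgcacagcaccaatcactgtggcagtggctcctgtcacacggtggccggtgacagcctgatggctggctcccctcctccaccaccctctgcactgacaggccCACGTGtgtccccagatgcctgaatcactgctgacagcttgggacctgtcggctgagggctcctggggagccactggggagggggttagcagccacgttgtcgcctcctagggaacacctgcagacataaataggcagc
The Oxt window held 5 matches to TGACC, 4 forward and 1 reverse. Of 32851 mouse promoter windows of this length, 35.2% held at least 1 match and 14 held 5 or more. The Avp window held 1 match to CACGTG, and 6.02% of windows held at least 1. A match describes the letters only.

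Other peptides of the hypothalamus followed the same libraries. Hcrt, the precursor of the wake-promoting orexins, had 74.1 normalised reads in replicate 1 and 2776 to 4035 elsewhere. Pmch, the precursor of melanin-concentrating hormone, had 489 and 4521 to 6645. Gal, the precursor of galanin, had 71.4 and 399 to 490. These 3 genes differed little among the other 5 libraries: without replicate 1 their ratios were 1.45, 1.47 and 1.23.

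The transcription factors Fezf1 and Nr5a1 were also near 0 in replicate 1. Fezf1, which marks the ventromedial hypothalamus early in development, had 4.58 normalised reads there and 159 to 375 elsewhere. Nr5a1, or steroidogenic factor 1, a defining gene of the ventromedial nucleus, had a single read there and 80.3 to 218 normalised reads elsewhere. Sim1, a factor of the paraventricular nucleus, was lowest there but not near 0, at 219 against 322 to 545 elsewhere. C130093G08Rik had no read in replicate 1, which allows up to 2.75 normalised reads at a limit of 3 reads, so its highest library was at least 70.1-fold higher.

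Of the 7 hypothalamic genes with a mean of at least 100, 6 had a ratio of 2 or more and 6 were lowest in replicate 1. Over all genes tested these shares were 3.41% and 23.8%. The exception among the hypothalamic genes was Foxb1, a factor of the mammillary body, with 263 to 347 normalised reads and its lowest value in replicate 6. Without replicate 1, 3 of the 7 still had a ratio of 2. Of 23 neuropeptide precursors, 11 passed with all libraries and 4 without replicate 1, against 3.41% and 1.78% of all genes. Pdyn, the precursor of dynorphin, had 367 normalised reads in replicate 1 and 1157 to 1698 elsewhere. Penk, the enkephalin precursor, and Cartpt, a peptide of the Edinger-Westphal nucleus, did not follow it, with ratios of 1.44 and 1.62.

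Most genes of raphe, glycinergic and cholinergic neurons were instead highest in replicate 1. Tph2 had 6092, 136, 908, 643, 1271 and 1422 normalised reads in replicates 1 to 6. Slc6a4, the serotonin transporter, had 3479, 93.4, 417, 315, 692 and 740. Both were highest in replicate 1 and lowest in replicate 2, and their ratios were 44.8 and 37.3. Without replicate 1 they were 10.5 and 7.92, so the range did not rest on that library alone.

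Slc6a5 had 6406, 73.4, 75.2, 105, 1368 and 583 normalised reads, with replicates 1, 5 and 6 above the other 3. Slc6a9, the glycine transporter found mainly on glia, had a ratio of only 1.22. Glra1, a glycine receptor subunit of brainstem and spinal cord, had 2081 in replicate 1 and 629 to 835 elsewhere. Chat, which makes acetylcholine, ran from 132 in replicate 2 through a median of 241 to 533 in replicate 1, and Slc18a3 from 71.6 through 137 to 326 in the same libraries. Ache, which degrades acetylcholine and is also made by dopaminergic neurons, stayed within a factor of 1.15. Isl1, also on the cholinergic list, went the other way, with 0.767 RPKM in replicate 1 and 1.86 to 3.73 elsewhere. It clustered with the hypothalamic genes described below.

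All 4 tested serotonergic genes, all 3 genes of the glycinergic list, Slc6a9 included, and 4 of 5 cholinergic genes were highest in replicate 1. So were 27.0% of all genes tested. So were 13 of 17 oligodendrocyte, 7 of 12 GABAergic, 11 of 23 dopaminergic and 5 of 6 interferon response genes, and their part in the result was not tested. Clustering the 475 genes by their profiles over the libraries gave 16 clusters of at least 5 genes, which held 429 genes. Tph2, Slc6a4, Slc6a5, Chat, Slc18a3, Lamp5, a membrane protein of some inhibitory neurons, and Pax5, a hindbrain and midbrain factor, fell in 1 cluster of 51. Every gene of it was highest in replicate 1 and 45 were lowest in replicate 2. The hypothalamic genes fell in the largest cluster, of 158, of which 157 were lowest in replicate 1. These clusters were formed from the same values, so the shared profile is a description.

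**Figure D2:**
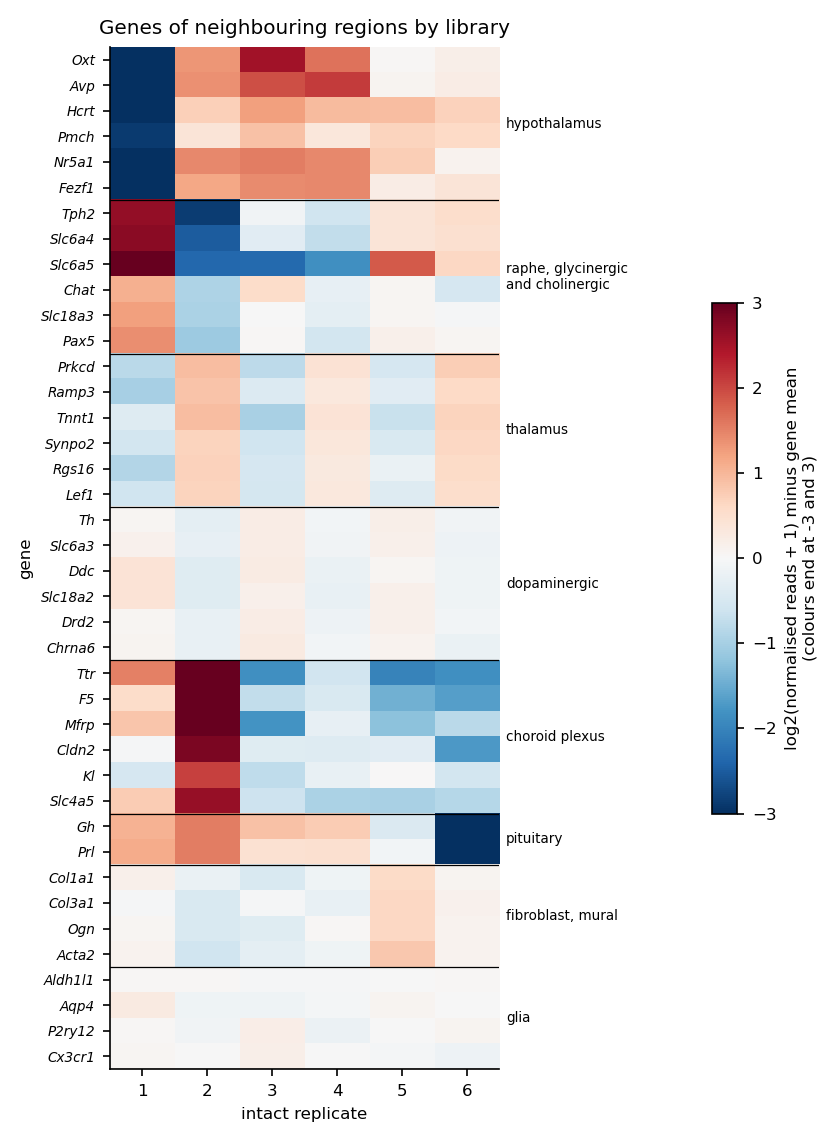
Normalised reads of named genes in the 6 intact libraries, as log2(normalised reads + 1) minus the gene's mean, with colours ending at 3 in either direction. Rows are genes grouped by list and columns are replicates. Replicate 1 is low for hypothalamic genes and high for raphe genes, replicate 2 is high for choroid plexus genes, and glial rows stay near 0.

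Thalamic and dopaminergic genes were ordered in opposite ways over the libraries. Prkcd, a protein kinase C of relay neurons of the thalamus, had 7651, 25594, 7763, 18060, 9445 and 22522 normalised reads in replicates 1 to 6. Replicates 2, 4 and 6 were all above 1, 3 and 5, and the ratio was 3.35. Th ran the other way, at 5950, 4623, 6637, 5408, 6449 and 5307, although its ratio was only 1.44.

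The order held for most of both lists, and for parts of others. Of the 10 thalamic genes, 9 had replicates 2, 4 and 6 all above the other 3, against 7.81% of all genes tested. Calb2, or calretinin, a calcium-binding protein that many midbrain cells also make, was the exception, with 9798 to 12033 normalised reads. Of the 23 dopaminergic genes with a mean of at least 100, 17 had replicates 1, 3 and 5 all above 2, 4 and 6, against 6.15% of all genes, and none had the reverse. Replicates 2, 4 and 6 were also above the rest for 4 of 5 striatal and 5 of 15 circadian clock genes, and 1, 3 and 5 for 3 of 5 cholinergic and 3 of 5 subthalamic genes. The thalamic and dopaminergic counts were the same with TMM scaling and with scaling to total reads. This split of the libraries was noticed in the values, no label tells odd from even replicates, and the cause was not tested.

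The thalamic genes differed more in size. Of the 10, 8 passed a ratio of 2, 7 did so without replicate 1 and 6 without replicate 2. Over all genes tested these shares were 3.41%, 1.78% and 2.64%. Ramp3, an accessory protein of peptide receptors, ran from 706 through a median of 1447 to 2546 normalised reads, and Tnnt1, a troponin found in thalamic neurons, from 690 through 1421 to 2552. Gabrd, the delta subunit of extrasynaptic GABA-A receptors, which the thalamus uses heavily, ran from 720 through 1487 to 2481. Cck, the cholecystokinin precursor, which both thalamic and dopaminergic neurons make, ran from 1399 through 2374 to 3524 and was highest in replicates 2, 4 and 6.

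The dopaminergic genes of synthesis, transport and signalling differed less in size. Slc18a2 ran from 5483 through a median of 7160 to 9380 normalised reads, Ddc from 4370 through 5548 to 7467, and Ret, the receptor for GDNF-family ligands, from 6855 through 7419 to 8156. Dlk1, a membrane protein of the Notch family, ran from 9149 through 10017 to 12639. All 4 of these had replicates 1, 3 and 5 above the others, with ratios of 1.71 for Slc18a2 and Ddc, 1.38 for Dlk1 and 1.19 for Ret, against a median of 1.54 for the list. Aldh1a1 did not share the order and had a ratio of 1.19.

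Of the 23 dopaminergic genes tested, 4 passed a ratio of 2, against 3.41% of all genes. The 4 were the midbrain factors En1, at 2.74, Lmx1b, at 2.15, and En2, at 2.02, and Sncg, or gamma-synuclein, at 2.06. All were highest in replicate 1 and lowest in replicate 2, and fell in the cluster of Tph2 and Slc6a4. En1, Lmx1b and En2 are also made by serotonergic neurons or hindbrain cells. Without replicate 1, En1 and Lmx1b still passed, at 2.13 and 2.101, and En2 and Sncg did not.

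**Figure D3:**
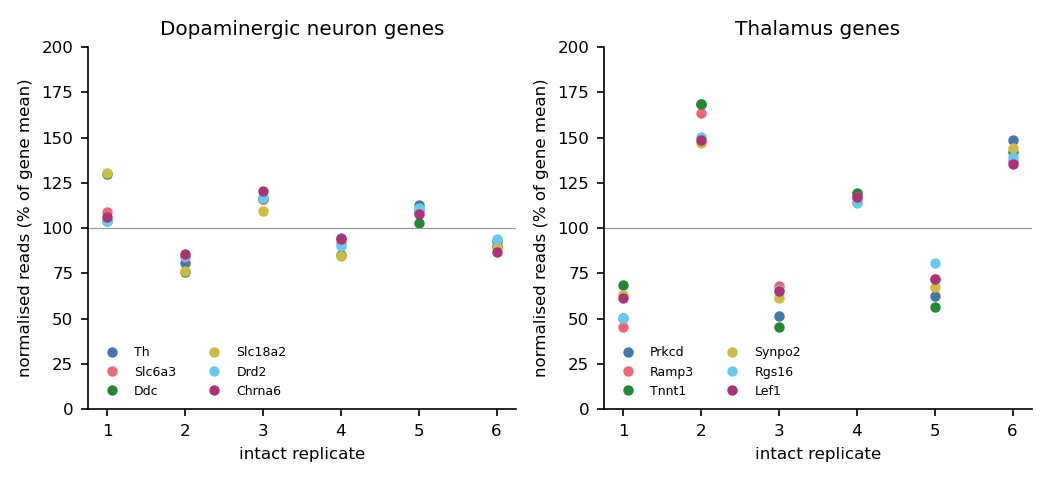
Normalised reads as a percentage of each gene's mean over the 6 intact libraries (vertical axis from 0) for 6 dopaminergic genes, left, and 6 thalamic genes, right. Points are genes in each replicate and the grey line is the gene mean. Replicates 2, 4 and 6 are below the line on the left and above it on the right.

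Choroid plexus genes stood out in replicate 2. The choroid plexus is the secretory epithelium of the ventricles. Ttr, its thyroxine carrier, had 4783, 44471, 462, 1111, 418 and 466 normalised reads in replicates 1 to 6, so replicate 1 was also above replicates 3 to 6. F5, coagulation factor V, had 1391 in replicate 2 and 31.3 to 148 elsewhere. Kl, the hormone co-receptor klotho, had 2441 and 347 to 593.

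All 9 choroid plexus genes with a mean of at least 100 were highest in replicate 2, as were 14.3% of all genes tested. All 9 had a ratio of 2, against 3.41% of all genes. Without replicate 2, 1 passed both the mean and the ratio. Because a mean of at least 100 was often reached through replicate 2 alone, that count could hardly have been lower. The summed value of the 12 listed genes was 52919 in replicate 2 and 1880 to 6493 in the others. Their cluster held 21 genes, Enpp2 among them.

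Replicate 2 was also the lowest library for a cluster of 10 genes led by Hoxc4 and Hoxb5. Hoxc4 and Hoxb5, which pattern the hindbrain and spinal cord, had 2.72 and 18.1 normalised reads there, the former from 3 reads. Elsewhere they had 86.9 to 200 and 73.3 to 192. The cluster also held Barhl1, of the subthalamic list, and each of its genes was lowest in replicate 2, as were 16.2% of all genes, a profile on which the cluster was formed. Replicate 2 was thus the lowest for Tph2, Slc6a4, Chat and these Hox genes and the highest for Prkcd and Ttr.

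The hormone genes Gh and Prl were low in replicate 6. Gh, growth hormone, had 1581, 2244, 1413, 1304, 569 and 56.4 normalised reads in replicates 1 to 6. Prl, or prolactin, had 356, 481, 228, 231, 155 and 13.6. Replicate 6 was far below the rest for both, and replicate 2 was the highest. Pomc, which both the pituitary and arcuate neurons make, did not follow them, with its highest value of 3680 in replicate 4 and 197 to 1494 elsewhere. Tshb, a subunit of thyrotropin and the other tested gene of the pituitary list, was highest in replicate 6, at 221, and had 143 to 217 elsewhere. Without replicate 6, Gh, Prl and Pomc still had ratios of 2 or more.

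Gh and Prl are made by related pituitary lineages that depend on the POU-domain factor Pit-1. The 250 bases before the start of Prl lie on the plus strand at chr13:27057320-27057569 and are shown with matches to TATNCAT, a core of POU-factor sites searched on both strands, in capitals.
Prl: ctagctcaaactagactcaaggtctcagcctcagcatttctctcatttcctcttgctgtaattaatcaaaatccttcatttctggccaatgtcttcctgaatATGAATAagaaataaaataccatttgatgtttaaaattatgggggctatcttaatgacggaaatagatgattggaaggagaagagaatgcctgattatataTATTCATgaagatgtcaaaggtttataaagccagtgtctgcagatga
The window held 1 match on each strand, and 7.92% of promoter windows held at least 1. Gh had no entry in the promoter table.

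Genes of meningeal fibroblasts were highest in replicate 5. Of 8 genes of meningeal fibroblasts, all 8 were highest there, as were 14.9% of all genes tested. Of these 8 genes, 4 had a ratio of 2, and 1 did without replicate 5, against 3.41% and 2.95% of all genes. Col1a1, a collagen chain, ran from 589 through a median of 795 to 1200 normalised reads, and Ogn, a matrix proteoglycan, from 990 through 1393 to 2091. Acta2, the actin of smooth muscle, ran from 357 through 535 to 945. Without replicate 5 the ratios of Col1a1, Ogn and Acta2 were 1.52, 1.48 and 1.63. The same cluster of 36 genes, all highest in replicate 5, held Neurod6 and Neurod2, factors of cortical excitatory neurons, and Malat1, a nuclear noncoding RNA. Malat1 had 13783, 13962, 14406, 23453, 48791 and 37780 normalised reads in replicates 1 to 6.

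Another cluster held 24 genes, all lowest in replicate 1. Crym, a thyroid hormone binding protein, had 24.7 normalised reads in replicate 1 and 151, 415, 509, 616 and 233 in replicates 2 to 6, with its highest value in replicate 5.

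Some mitochondrial genes also varied in single libraries. mt-Co3 had 8423 normalised reads in replicate 1 and 1620 to 3088 elsewhere, and mt-Nd4l had 1952 in replicate 3 and 201 to 673 elsewhere. mt-Atp6 had 4829 and 4470 in replicates 2 and 3 and 1337 to 2072 in the other 4. The copies on chromosome 1 and the overlaps between mitochondrial genes named above make these values uncertain. By contrast, mt-Co1 stayed within a factor of 1.13.

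Correlations over the 6 libraries were computed among 15 genes chosen to stand for cell types and states. Slc6a3 and Prkcd split into 2 separate sets of libraries and got no pooled correlation, which left 78 pairs. None passed an adjusted p of 0.05 by exact permutation with Benjamini-Hochberg adjustment, and the lowest adjusted p was 0.867. Before adjustment 4 pairs, or 5.13%, had a two-sided exact permutation p under 0.05, where 0.002778 is the smallest that 6 libraries allow. A pair reaching that smallest p alone could not pass after adjustment over the 78 pairs. The lack of passing pairs therefore does not show that these genes varied independently. Gad1 and Gfap had r = -0.84 and rho = -0.71, with exact permutation p of 0.0389 and 0.136, and r = -0.84 without the 2 libraries farthest from the median of Gad1. Gh and Fos had r = -0.78 and rho = -0.89, both with exact permutation p = 0.0333, but r = -0.04 without the 2 farthest for Gh, so that relation rested on replicates 5 and 6.

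Some of the variable genes also varied within the AAV groups, each taken alone. Of the 475, 428 had a mean of at least 100 in the AAV-GFP libraries, and 122 of these, or 28.5%, had a ratio of 2 there. Over all genes of that group the share was 2.69%. In the AAV-SIRT3 libraries it was 159 of 409, or 38.9%, against 3.19% over all genes, and 105 genes without AAV-SIRT3 replicate 5. Among genes tested but not variable in the intact group the shares were 1.60% and 1.80%.

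The clusters differed in how many of their genes varied in the AAV groups. The cluster highest in replicate 5, which held Neurod6, Malat1 and Col1a1, varied in each, with 25 of 35 genes past a ratio of 2 in AAV-GFP and 26 of 31 in AAV-SIRT3. The choroid plexus cluster had 13 of 16 and 5 of 11. The thalamic cluster of 65 genes had 4 and 3 past it, or 6.15% and 4.62%. Over all genes the shares were 2.69% in AAV-GFP and 3.19% in AAV-SIRT3. None of the 10 listed thalamic genes passed in either AAV group, which is near those shares. The differences between groups were not tested, and the 475 were chosen for their range in the intact libraries, so a lower share elsewhere is no difference between groups.

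**Figure D4:**
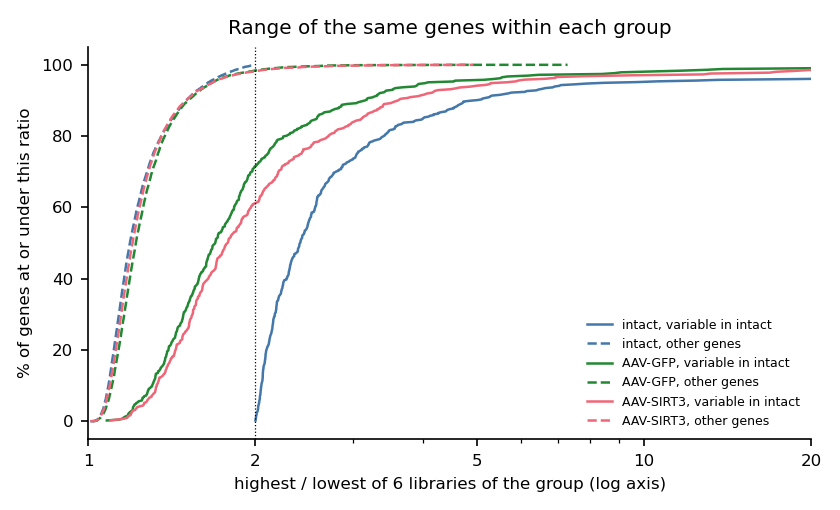
Share of genes (vertical axis, percent) at or under each ratio of highest to lowest library (log axis, ending at 20) within the intact, AAV-GFP and AAV-SIRT3 groups of 6 libraries. Solid lines are the genes with a ratio of 2 or more in the intact group, dashed lines are the other genes tested, and the dotted line is a ratio of 2, which separates the intact lines by construction. In both AAV groups the solid line lies right of the dashed one.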

How the data were processed

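The 6 intact columns of the deposited table were analysed, and all 18 columns were matched to samples, with 0 left over. For each gene the table gives a deposited signal, named in its title as HTSeq read counts that the authors normalised with DESeq2. HISAT2 2.1.0, DESeq2 1.34.0 and mm10 are named in the submitters' processing notes. The annotation, strand setting and treatment of multiply matching reads are not given in the sources used here. Without a stated strand setting, overlapping and antisense genes cannot be told apart.

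Each column was divided by its smallest value above 0, which gave whole reads (within 0.0001) for 100% of values. For replicate 4, with a size factor of 1.001, the steps are a weak proof of whole reads. Recovered reads gave depth and, with merged exon lengths of GENCODE M21 matched by symbol, levels (49192 genes, 98.15% of reads). Genes with a mean of at least 100 normalised reads were called variable where the highest library was at least 2 times the lowest, with 3 reads as a floor. Called genes were clustered on log2(value + 1) by average linkage on 1 minus Pearson's r, at a height of 0.3. TMM factors used edgeR 4.0.16 in R 4.3.3, and the rest Python 3.11.15 with scipy 1.17.1. The biological coefficient of variation was computed in Python from the variance over libraries less the counting variance, relative to the mean. On simulated data in which all genes shared the same spread and 200 were changed 3-fold, 199 were called, with 0 false calls. Real genes differ in spread, so this gives no error rate for the genes called here. Promoters came from RefSeq, and 242 of 339 list genes had an entry.

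Named genes were the given markers, the top 20 by level and by range, up to 6 members per list and 5 per cluster, and the genes correlated. Some genes that this rule picks are not reported here. The chromosome 1 copies, and list members that went against their list, were named after their values were seen. Members and lists were chosen with earlier results of these data known. The 6 libraries come from 6 mice. No molecular identifiers are named in the labels, so floors cover counting error only. Alternatives were TMM scaling, scaling to total reads, other minimum means, a spread-based call, other cluster heights and leaving out each library. For levels they were also the longest transcript in place of merged exons and nuclear genes alone as the total.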

Additional observations from a re-analysis of the deposited data

Results flagged for a closer look

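In each of 112 named genes the highest and the lowest of the 6 intact libraries were compared with the rest by Dixon's criterion, and 27 genes had a library far from the others, where chance alone gives about 5.6 (1 in 20). Many of these genes were named for their wide range between libraries, so the comparison with chance is no test. Replicate 1 was the far library in 18 of them, 14 times as the highest and 4 times as the lowest, and replicate 2 in 7, always as the highest.

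Replicate 1 was far above the others for genes of serotonergic, glycinergic, cholinergic and noradrenergic neurons. In normalised reads it had 6092 for Tph2 (next library 1422), 3479 for Slc6a4 (740), 6406 for Slc6a5 (1368), 2081 for Glra1 (835), 6210 for Slc6a9 (5445), 326 for Slc18a3 (145), 102 for Dbh (1.14) and 141 for Slc6a2 (4.53). The factors Pax5, at 936 (390), and Gata3, at 717 (420), and the membrane protein Lamp5, at 3833 (1513), were far above as well. So were Mbp, at 467731 (384843), Tubb4a, at 80485 (73016), mt-Co3, at 8423 (3088), and Slc6a9, found mainly on glia, at 6210 (5445). The criterion is relative to each gene's range, so the difference itself was small for some of these, such as Slc6a9 and Tubb4a.

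Replicate 1 was far below the others for 4 peptide precursors. Hcrt had 74.1 there (next lowest 2776), Pmch 489 (4521), Gal 71.4 (399) and Npy 209 (445).

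Replicate 2 was far above the others for genes of the choroid plexus. Ttr had 44471 (next 4783), F5 1391 (148), Kl 2441 (593), Mfrp 450.5 (83.3), Cldn2 438 (59.5), Tmem72 617 (106) and Enpp2 52523 (32978). Single genes were far above in other libraries: mt-Nd4l in replicate 3, at 1952 (673), and Pomc in replicate 4, at 3680 (1494). The causes were not tested.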

How the results depend on the processing

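The count of 475 variable genes was 936 of 15300 genes (6.12%) with a minimum mean of 50 and 115 of 10601 (1.08%) with a minimum of 500, and 248 to 433 when 1 library was left out, the lowest without replicate 1. TMM scaling gave 481, scaling to total reads 488 and a spread-based call 412. Without each library in turn, 89 of the 475 were called every time. Of 57 called genes that are named, Isl1 not among them, 29 were called whichever library was left out. That needs both a mean of at least 100 and a ratio of 2 each time. Of the 475, 122 also varied in AAV-GFP and 159 in AAV-SIRT3. These counts were 24 and 31 with a minimum of 500, and 94 to 118 and 105 to 148 when 1 library was left out, the lowest of the latter without AAV-SIRT3 replicate 5. No paired analysis was possible because the intact libraries are 1 group and no groups were compared. Of the 20 genes with the highest levels, 18 were the same with the longest transcript in place of merged exons. Depth limits genes with few reads: 3 reads correspond to 2.72 to 3.42 normalised reads.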

Other observations

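Several gene groups were outside the comparisons above, and 3.41% of all genes tested had a ratio of 2 or more between intact libraries. Of 10 genes that respond to glucocorticoids, 2 did, and 0 did without replicate 3. Of these 10, 5 were highest in replicate 5, as were 14.9% of all genes. Of 8 heat shock genes, 1 had a ratio of 2, near the background, and 0 did without replicate 1. None of the 6 interferon response genes with a mean of at least 100 reached a ratio of 2, but their median ratio was 1.79, against 1.196 for all genes, and 5 of the 6 were highest in replicate 1, as were 27.0% of all genes. In the subthalamic nucleus list 2 of 5 genes reached a ratio of 2, and 0 did without replicate 2. In the striatal list 3 of 5 did, and 1 did without replicate 1 or without replicate 4.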
